A study of Mus musculus with 9 samples.

Results

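The Notch receptors, their nuclear partner and their Hes and Hey effectors were followed across the 3 genotypes of the series as a set of 10 genes. Members were taken by symbol from the table of CPM values (counts of a gene scaled to the size of the library), and 10 of the 10 symbols asked for were listed among 14670 genes. They are the 3 receptors *Notch1*, *Notch2* and *Notch3*, the DNA-binding protein *Rbpj*, and 6 genes grouped here as effectors, *Hes1*, *Hes5*, *Hes6*, *Hey1*, *Heyl* and *Nrarp*. The grouping follows family names and does not mean that each, *Hes6* in particular, is turned on by Notch. Cerebral cortex of mouse embryos at E16.5 gave 9 libraries, with 3 libraries each from embryos labelled Control +/+, Fzd3 -/- and Celsr3 -/-. Mutants were on a mixed background of C57Bl/6 and CD1, and the methods describe controls as littermates that were heterozygous or wild type, whereas the labels give +/+. RNA was prepared with Trizol according to the labels and with an RNeasy kit according to the methods. Whether a library came from 1 embryo or from several is not given in the sources used here, so P values measure the spread between libraries.

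A Notch receptor is activated when a Delta or Jagged ligand on a neighbouring cell binds it, after which the gamma-secretase complex cuts the receptor and frees its intracellular domain. That domain joins RBPJ and a Mastermind protein on DNA and turns on some Hes and Hey genes, whose products repress proneural genes. In the embryonic cortex this pathway is known for maintaining radial glia, the progenitors that line the ventricle.

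The labels were first checked with the mutated genes. *Celsr3*, an atypical cadherin of planar cell polarity, was at 122, 139 and 118 CPM in *Celsr3* mutant libraries 1, 2 and 4 and at 196, 243 and 214 CPM in control libraries 1, 2 and 3. All *Celsr3* mutant libraries lay below all control libraries, with a log2 fold change of -0.78 (SE 0.091; limma, adjusted P = 0.0018). With a block for replicate number it missed the threshold (limma, adjusted P = 0.0699). Over 19 alternatives the log2 fold change of *Celsr3* stayed between -0.85 and -0.70. *Fzd3*, a Frizzled receptor, was at 46.5, 39.8 and 59.6 CPM in the libraries labelled *Fzd3* mutant, against 58, 67.7 and 46.9 CPM in controls. These groups overlapped, and the log2 fold change of -0.24 did not pass the threshold of 0.05 (95% interval -0.57 to 0.08; limma, adjusted P = 0.24; 0.0457 without *Fzd3* mutant library 3). Exon 3 is described as deleted in the mutant allele of *Fzd3*, and levels of single exons were not analysed here. A level over the whole gene does not check this label, and *Fzd3* mutant below means the libraries so labelled.

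Depth was read from the smallest step between values of a library. If that step is 1 read, depth ranged from 39.9 M reads in control library 3 to 69.6 M reads in *Celsr3* mutant library 4, and 3 reads were worth between 0.0427 and 0.0752 CPM. Too few low values were listed to establish the step as 1 read, so these depths are estimates. The lowest value of any member was 2.11 CPM, well above the level of 3 reads, which covers counting error only. Library 4 of the *Celsr3* mutants stood apart, most in markers of the meninges. Its 4 listed meningeal genes, of 6 chosen, summed to 87.1 CPM, against 8.32 and 10.4 CPM in the other *Celsr3* mutant libraries and 6.47, 11.5 and 6.97 CPM in controls. It also had the highest mural sum of the 9 libraries, at 119 CPM, and the highest endothelial sum of the *Celsr3* mutants, at 186 CPM. Counts of called members are therefore also given without it.

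**Figure D1:**
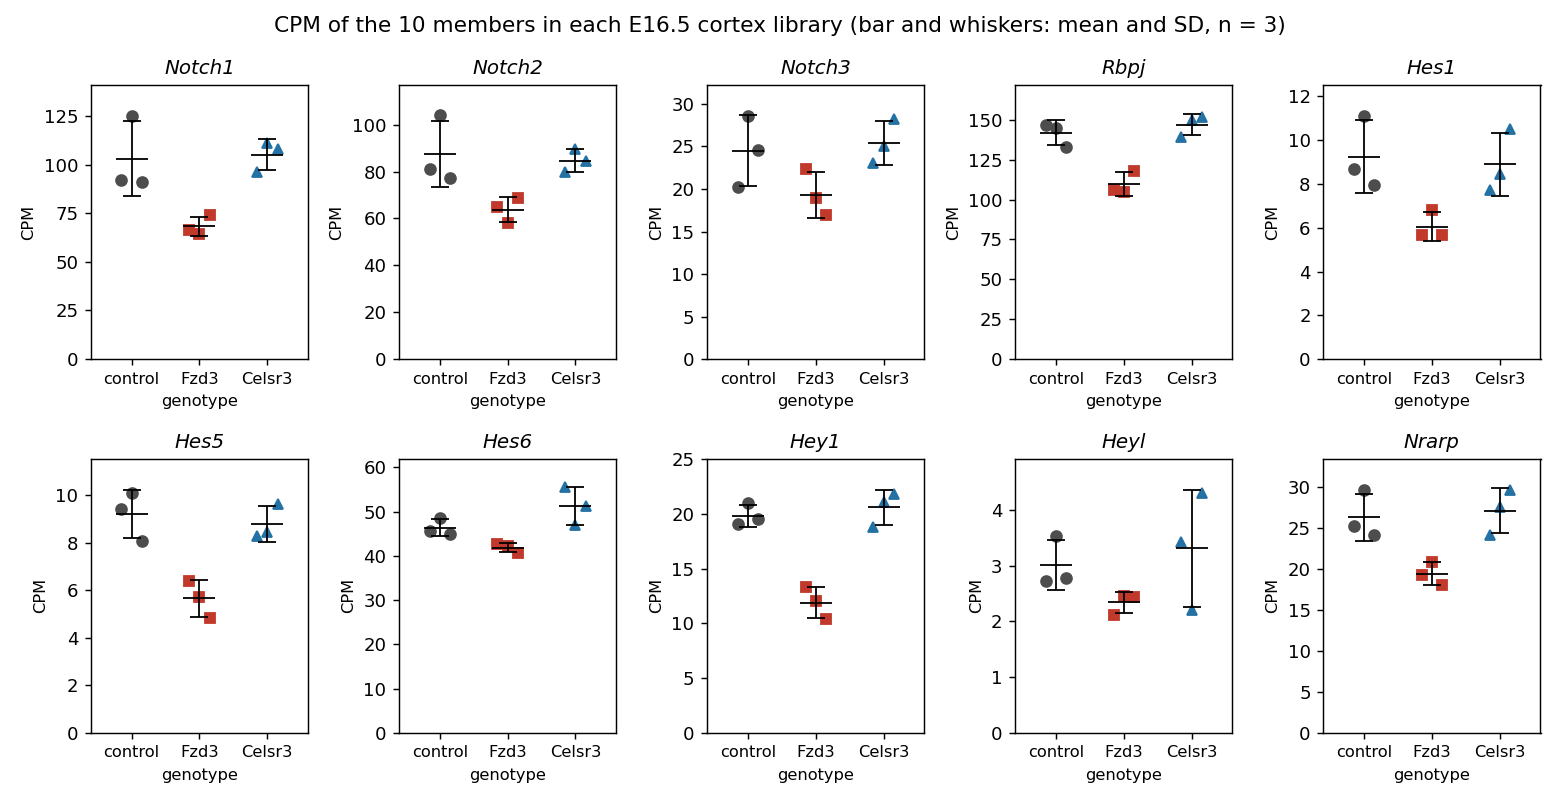
CPM of each of the 10 members (vertical axis, from 0) in control, *Fzd3* mutant and *Celsr3* mutant libraries (horizontal axis), with 1 point per library and the mean and SD of 3 libraries in black. For *Notch1* the *Fzd3* mutant libraries sit between 64.2 and 73.8 CPM, below the control range of 91.1 to 125 CPM, while *Celsr3* mutant libraries lie inside that range.

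The first comparison asked how the receptors and effectors stood in *Fzd3* mutants. Of the 10 members, 7 fell: *Notch1*, *Notch2*, *Rbpj*, *Hes1*, *Hes5*, *Hey1* and *Nrarp*. Fold changes on the log2(CPM + 0.5) scale ranged from -0.72 for *Hey1* to -0.15 for *Hes6*, and all 10 were negative. Over all genes tested, 29.8% were called (adjusted P under 0.05), 14.8% as lower and 15% as higher, so changes were common in this comparison. The median log2 fold change was -0.44 over the members and -0.001 over all genes. In 9 of the 10 members every *Fzd3* mutant library lay below every control library, which held for 22.2% of all genes. The exception was *Notch3*. These are bulk samples, in which fewer cells of a type and less RNA per cell cannot be told apart.

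*Notch1* (XLOC_018257) is the receptor best known from cortical progenitors and lies on chromosome 2 from 26457903 to 26516663, on the minus strand of GRCm38. Its level was 92, 125 and 91.1 CPM in control libraries 1, 2 and 3, 66.5, 64.2 and 73.8 CPM in *Fzd3* mutant libraries 1, 2 and 3, and 95.9, 111 and 108 CPM in *Celsr3* mutant libraries 1, 2 and 4. Control library 2 was the highest of the 9, and the *Fzd3* mutant libraries did not reach the lowest control. *Notch1* in *Fzd3* mutants was at 66.4% of the control mean, a log2 fold change of -0.57 (SE 0.109; limma, adjusted P = 0.00288). *Notch2* (XLOC_020267), on chromosome 3 from 98013527 to 98150361, is a second receptor present in progenitors. It measured 81.2, 104 and 77.4 CPM in controls, 64.7, 58 and 68.9 CPM in *Fzd3* mutants and 79.9, 89.5 and 84.6 CPM in *Celsr3* mutants. Again the *Fzd3* mutant libraries were the 3 lowest and control library 2 the highest. Its log2 fold change in *Fzd3* mutants was -0.44 (SE 0.1; limma, adjusted P = 0.00719).

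*Notch3* (XLOC_013985), on chromosome 17 from 32120820 to 32166852, is known from mural cells of blood vessels as well as from progenitors. Its values were 20.2, 28.6 and 24.6 CPM in controls, 22.3, 18.9 and 16.9 CPM in *Fzd3* mutants and 23.1, 25 and 28.2 CPM in *Celsr3* mutants. *Fzd3* mutant library 1 exceeded control library 1, so the groups overlapped. The log2 fold change in *Fzd3* mutants was -0.33 with a 95% interval of -0.62 to -0.04, and it missed the threshold (limma, adjusted P = 0.0801, with a range of 0.026 to 0.275 over the alternatives). It passed without control library 1 (adjusted P = 0.026) or without *Fzd3* mutant library 1 (adjusted P = 0.0487). Of 7 listed markers of mural cells (of 9 chosen), 2 were called higher in *Fzd3* mutants, 0 lower and 5 not called, beside 15% of all genes called higher, with 1 higher without control library 2 and 3 without *Fzd3* mutant library 3 or *Celsr3* mutant library 4. Their sums were 109, 110 and 99.7 CPM in *Fzd3* mutants, 87.5, 87.6 and 89.8 CPM in controls and 96.3, 87.4 and 119 CPM in *Celsr3* mutants, with *Rgs5* as the most abundant gene and 0 listed genes at 0. The highest sum thus came from a *Celsr3* mutant library. The part of mural cells in the value of *Notch3* was not tested.

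*Rbpj* (XLOC_024483), on chromosome 5 from 53466152 to 53657362, encodes the DNA-binding partner that all Notch receptors share. Its level was 147, 145 and 133 CPM in controls, 106, 105 and 118 CPM in *Fzd3* mutants and 139, 150 and 152 CPM in *Celsr3* mutants. The highest *Fzd3* mutant library stayed below the lowest library of either other genotype. This was a log2 fold change of -0.37 in *Fzd3* mutants, with an SE of 0.0592 (limma, adjusted P = 0.00102).

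Among the effectors, *Hes1*, *Hes5*, *Hey1* and *Nrarp* fell in *Fzd3* mutants, while *Hes6* and *Heyl* did not pass the threshold. *Hes1* (XLOC_012020, chromosome 16 from 30064384 to 30067796), a repressor of proneural genes, was at 8.69, 11.1 and 7.93 CPM in controls, 5.67, 6.8 and 5.69 CPM in *Fzd3* mutants and 7.73, 8.44 and 10.5 CPM in *Celsr3* mutants. *Fzd3* mutant libraries were the 3 lowest, and the other genotypes overlapped. *Hes1* in *Fzd3* mutants had a log2 fold change of -0.56 (SE 0.144; limma, adjusted P = 0.0132, with a range of 0.00567 to 0.0539 over the alternatives). It missed the threshold without control library 2 (adjusted P = 0.0539) and without *Fzd3* mutant library 1 (adjusted P = 0.0519). *Hes5* (XLOC_022796, chromosome 4 from 154960923 to 154962371), the other Hes repressor central to radial glia, was at 9.44, 10.1 and 8.1 CPM in controls, 6.39, 5.74 and 4.85 CPM in *Fzd3* mutants and 8.28, 8.44 and 9.65 CPM in *Celsr3* mutants. Its highest *Fzd3* mutant library was below its lowest control. The log2 fold change of *Hes5* was -0.66 (SE 0.12; limma, adjusted P = 0.00227).

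*Hey1* (XLOC_020583, chromosome 3 from 8663359 to 8667256), a Hairy-related repressor, had the largest change among the 10 members. It measured 19.1, 21 and 19.5 CPM in controls, 13.3, 12 and 10.4 CPM in *Fzd3* mutants and 18.8, 21.1 and 21.8 CPM in *Celsr3* mutants. The *Fzd3* mutant mean was 59.9% of the control mean, a log2 fold change of -0.72 (SE 0.0947; limma, adjusted P = 0.000321). *Nrarp* (XLOC_016520, chromosome 2 from 25180758 to 25183339), an ankyrin repeat protein that limits Notch activity as feedback, was at 25.2, 29.6 and 24.2 CPM in controls, 19.3, 20.8 and 18 CPM in *Fzd3* mutants and 24.2, 27.6 and 29.6 CPM in *Celsr3* mutants. The *Fzd3* mutant libraries were again separate from the rest, with a log2 fold change of -0.43 (SE 0.0956; limma, adjusted P = 0.00662).

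*Hes6* (XLOC_001418, chromosome 1 from 91411483 to 91414038) differs in role, since its product is known to counter *Hes1* and to be made in differentiating neurons. It was at 45.7, 48.5 and 44.9 CPM in controls, 42.7, 42.3 and 40.6 CPM in *Fzd3* mutants and 55.6, 47.1 and 51.3 CPM in *Celsr3* mutants. *Fzd3* mutants lay below controls without overlap, but by a small margin, at 90.3% of the control mean. The log2 fold change was -0.15 (95% interval -0.28 to -0.01; limma, adjusted P = 0.105, unadjusted P = 0.0407). *Heyl* (XLOC_022336, chromosome 4 from 123233556 to 123249875), known from vascular smooth muscle, was the lowest of the members, at 2.72, 3.53 and 2.78 CPM in controls, 2.11, 2.46 and 2.44 CPM in *Fzd3* mutants and 3.42, 2.21 and 4.3 CPM in *Celsr3* mutants. Its *Celsr3* mutant libraries spread more widely than either other group, and the highest of them was library 4, which also held the high meningeal sum. *Heyl* in *Fzd3* mutants gave a log2 fold change of -0.30 with an interval of -0.72 to 0.12 (limma, adjusted P = 0.267).

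**Figure D2:**
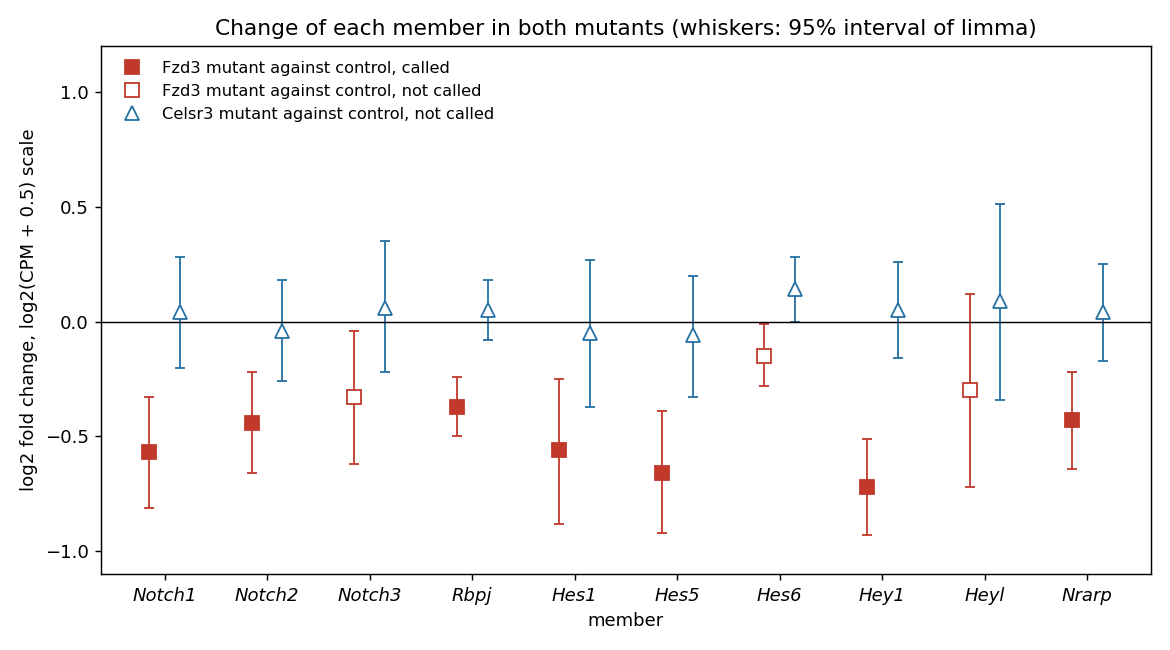
Log2 fold change of each member on the log2(CPM + 0.5) scale (vertical axis) in *Fzd3* mutants (squares) and *Celsr3* mutants (triangles) against the same controls, with 95% intervals of limma and filled symbols for adjusted P under 0.05. In *Fzd3* mutants 7 of 10 symbols are filled, from -0.37 for *Rbpj* to -0.72 for *Hey1*, and in *Celsr3* mutants 0 are filled.

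The second comparison, of *Celsr3* mutants with controls, used the same 3 control libraries as the first. The effector and receptor levels of *Celsr3* mutants given above overlapped with controls in all 10 members, and log2 fold changes ran from -0.06 for *Hes5* to 0.14 for *Hes6*. With limma 0 members were called, 1 (*Hes6*) was under 0.05 before adjustment, and limma with voom weights called 0. Over all genes 0.307% were called, 0.177% as lower and 0.13% as higher, so few genes of any kind passed in this comparison. Every *Celsr3* mutant library lay below every control library in 0 of the 10 members and in 5.27% of all genes. The median log2 fold change was 0.05 over the members and -0.002 over all genes. A difference that does not pass is not shown to be 0: the 95% interval reached from -0.20 to 0.28 for *Notch1*, from -0.37 to 0.27 for *Hes1*, from -0.33 to 0.20 for *Hes5* and from -0.16 to 0.26 for *Hey1*. Without *Celsr3* mutant library 4 the count was also 0.

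A direct comparison in the same fit set *Fzd3* mutants against *Celsr3* mutants. Here 9 of 10 members were lower in *Fzd3* mutants, against a background of 29.6% of genes called and 14.3% called as lower. The range of log2 differences was -0.77 for *Hey1* to -0.29 for *Hes6*. *Hes6*, below the threshold against controls, passed here (adjusted P = 0.0061 by limma), and its 3 *Celsr3* mutant values were all above its 3 *Fzd3* mutant values. *Heyl* did not pass (log2 difference -0.39, 95% interval -0.81 to 0.03; limma, adjusted P = 0.154). Without *Celsr3* mutant library 4 the count was 7, since *Notch3* (adjusted P = 0.143) and *Hes1* (adjusted P = 0.0827) no longer passed. *Notch3* also missed the threshold without control library 3 (0.0512), *Fzd3* mutant library 2 (0.108) or 3 (0.129) or *Celsr3* mutant library 2 (0.0881), and *Hes1* without *Fzd3* mutant library 1 (0.0734) or 3 (0.0528). *Heyl* passed only without *Celsr3* mutant library 2 (adjusted P = 0.0225). With a block for replicate number, 5 members and 2101 genes passed, and *Notch2* (adjusted P = 0.0736), *Notch3* (0.261), *Hes1* (0.109) and *Hes6* (0.0654) did not.

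Which effectors followed the receptors was read within each library, as the log2(CPM + 0.5) of a gene minus the log2(CPM + 0.5) of *Notch1*. Because 0.5 CPM is added, the scaling between libraries does not cancel fully, least so for low genes such as *Heyl*. For *Hes1* this difference was -3.33, -3.43 and -3.44 in controls and -3.44, -3.15 and -3.58 in *Fzd3* mutants. The groups overlapped, and the shift of 0.01 between their means had an exact permutation P of 0.9 (two-sided; 0.1 is the smallest P that 3 against 3 libraries allow). Shifts were -0.08 for *Hes5* (exact permutation P = 0.7), -0.15 for *Hey1* (exact permutation P = 0.5), 0.15 for *Nrarp* (exact permutation P = 0.4) and 0.20 for *Rbpj* (exact permutation P = 0.2), all with overlapping groups. *Hes1*, *Hes5*, *Hey1* and *Nrarp* thus fell in *Fzd3* mutants by amounts that did not separate from the fall of *Notch1*. With 3 against 3 libraries this does not show that the falls were equal. *Fzd3* mutant library 3 had the lowest difference of the 9 libraries for *Hes5* (-3.80) and *Hey1* (-2.77).

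*Hes6* stood apart from this group. Its log2 difference from *Notch1* was -1.12 ± 0.20 in controls (SD, n = 3), and -0.63, -0.60 and -0.85 in *Fzd3* mutant libraries 1, 2 and 3, without overlap. The shift of 0.43 had the smallest exact permutation P the design allows, 0.1. *Heyl* also shifted without overlap, by 0.27 (exact permutation P = 0.1), from -4.85, -4.96 and -4.80 in controls to -4.68, -4.45 and -4.66 in *Fzd3* mutants. *Notch1* itself changed by -0.57 in *Fzd3* mutants, while the median log2 fold change over all genes was -0.001. A gene that did not change would therefore also shift upward from *Notch1*. The share of all genes that do so without overlap was not computed, so the separation is not shown to be particular to *Hes6* or *Heyl*. Relative to *Notch2* the shift of *Hes6* was 0.30 (exact permutation P = 0.1, no overlap) and that of *Heyl* was 0.14 with overlap (exact permutation P = 0.2). Relative to *Notch2* the other shifts were -0.12 for *Hes1*, -0.22 for *Hes5*, -0.28 for *Hey1*, 0.01 for *Nrarp* and 0.07 for *Rbpj*, all with overlap. The receptors themselves differed slightly: *Notch2* minus *Notch1* was -0.18, -0.27 and -0.23 in controls and -0.04, -0.15 and -0.10 in *Fzd3* mutants, a shift of 0.13 (exact permutation P = 0.1). In *Celsr3* mutants the shifts from *Notch1* lay between -0.11 for *Hes5* and 0.10 for *Hes6*, with overlap for all genes compared.

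**Figure D3:**
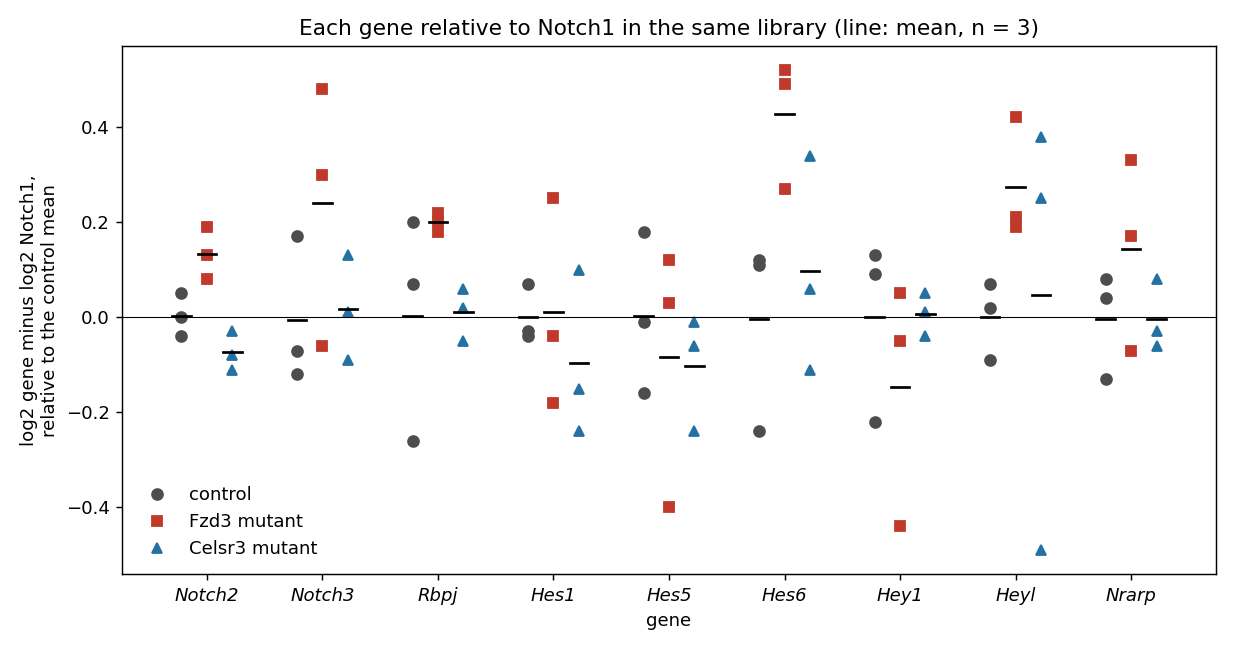
Log2 level of each other member minus log2 level of *Notch1* in the same library, set relative to the control mean (vertical axis, log2 units), with 1 point per library and a line at the mean of 3 libraries. *Hes6* in *Fzd3* mutants averages 0.43 above the control mean without overlap, while *Hes1* averages 0.01 and its groups overlap.

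Promoter sequence is shown for members that fell together and for *Hes6*, which did not pass. RefSeq windows on GRCm38.p6, from 250 bases before to 50 bases after a start site, matched 7 of the 10 members with 9 windows. *Hes1*, *Hey1* and *Heyl* had no entry. The windows were searched on both strands for TGGGAA, the core of the RBPJ motif, for GTGGGAA, which contains that core, for the E box CACGNG and for the N box CACNAG, which overlap in CACGAG. Of 32851 windows of this length in the mouse set, 25.6% held TGGGAA, 6.38% held GTGGGAA, 27.5% held CACGNG and 42.5% held CACNAG. *Hes5* (chr4:154960673-154960972, plus strand) held GTGGGAA at 2 places, the leftmost base of each 226 and 83 bases before the start. The first window of *Rbpj* (chr5:53590096-53590395, plus strand) held the core TGGGAA at 2 places and GTGGGAA at 0. *Nrarp* (chr2:25180508-25180807, plus strand) and the first window of *Hes6* (chr1:91413989-91414288, minus strand) held 1 CACGNG each and 0 copies of the core. The core and CACGNG, on either strand, are in capitals.
Hes5: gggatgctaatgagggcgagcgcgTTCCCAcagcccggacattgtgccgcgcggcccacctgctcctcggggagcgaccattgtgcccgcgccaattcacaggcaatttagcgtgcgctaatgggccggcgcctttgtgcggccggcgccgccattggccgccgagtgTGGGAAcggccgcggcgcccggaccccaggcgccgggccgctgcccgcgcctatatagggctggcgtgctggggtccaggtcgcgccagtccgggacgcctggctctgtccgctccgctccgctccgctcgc
Rbpj: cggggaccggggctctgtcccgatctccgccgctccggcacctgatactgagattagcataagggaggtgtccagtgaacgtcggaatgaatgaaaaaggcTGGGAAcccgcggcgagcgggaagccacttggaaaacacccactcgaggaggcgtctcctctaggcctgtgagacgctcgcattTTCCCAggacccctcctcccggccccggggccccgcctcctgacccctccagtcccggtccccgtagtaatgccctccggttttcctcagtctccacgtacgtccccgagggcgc
Nrarp: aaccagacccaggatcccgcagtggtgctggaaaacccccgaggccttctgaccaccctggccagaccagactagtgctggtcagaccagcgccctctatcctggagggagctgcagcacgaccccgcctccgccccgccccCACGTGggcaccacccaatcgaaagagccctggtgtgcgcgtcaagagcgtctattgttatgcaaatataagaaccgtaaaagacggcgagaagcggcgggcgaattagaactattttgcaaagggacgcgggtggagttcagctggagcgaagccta
Hes6: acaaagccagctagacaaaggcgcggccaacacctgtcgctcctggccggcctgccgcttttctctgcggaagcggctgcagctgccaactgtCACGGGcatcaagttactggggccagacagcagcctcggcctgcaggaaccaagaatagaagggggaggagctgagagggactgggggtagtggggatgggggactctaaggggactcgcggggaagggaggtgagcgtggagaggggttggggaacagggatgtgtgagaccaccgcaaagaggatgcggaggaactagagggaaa

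*Notch1*, *Notch2* and *Notch3* held 0 copies of the core in their windows. A match is a description of letters and not a binding site, and its absence says only that these letters are not in the window.

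Levels of different genes were compared per length, as CPM per kb of annotated exons. In controls *Hes6* was highest at 25.7 ± 1.05 CPM per kb (SD, n = 3), followed by *Rbpj* at 11.1 ± 0.607, *Nrarp* at 10.2 ± 1.12, *Notch2* at 8.11 ± 1.32 and *Notch1* at 7.21 ± 1.35 CPM per kb. *Hes5* at 6.76 ± 0.747, *Hey1* at 6.08 ± 0.303, *Hes1* at 4.54 ± 0.823, *Notch3* at 3.03 ± 0.519 and *Heyl* at 0.589 ± 0.0884 CPM per kb came next. From *Rbpj* down to *Hey1*, the ranges of neighbours over the control libraries overlapped. Such ranges do not settle the order within a single library, which was not compared here. *Hes6* was separate from *Rbpj*, *Hey1* from *Hes1*, *Hes1* from *Notch3* and *Notch3* from *Heyl*. The order of the means was the same in all 3 genotypes. It depends on the length used. Over the longest annotated transcript, *Notch1* measured 10.8 CPM per kb in controls and moved from place 5 to place 3. By that length *Rbpj* measured 25.9 CPM per kb in controls, still at place 2, and *Hes6* measured 29.5, still at place 1.

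**Figure D4:**
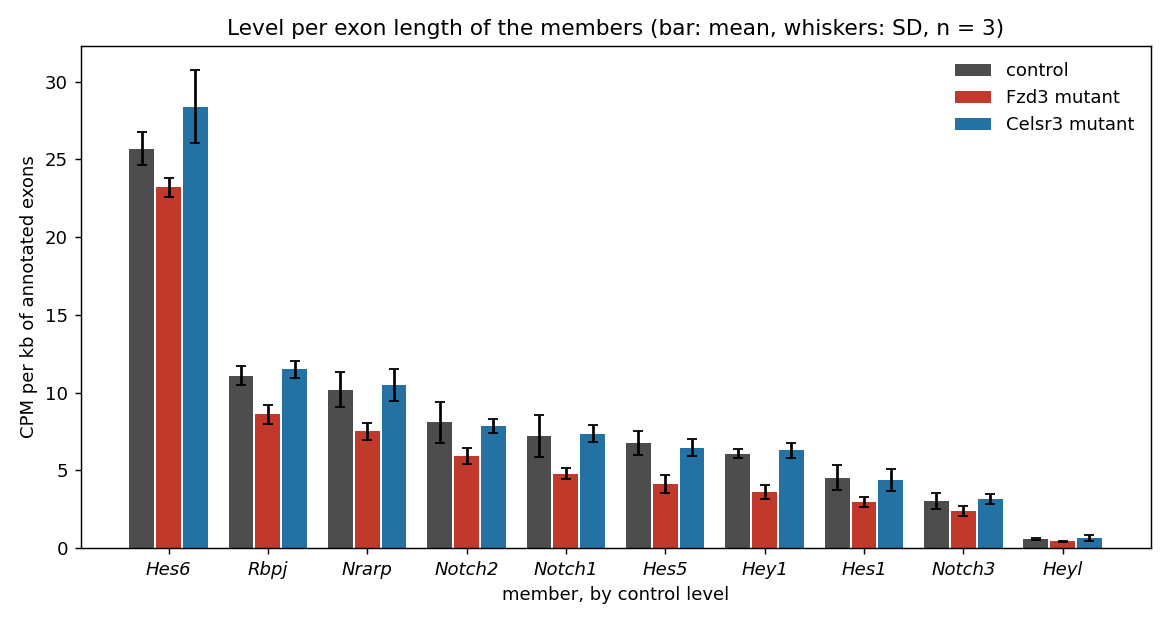
CPM per kb of annotated exons (vertical axis, from 0) for each member in control, *Fzd3* mutant and *Celsr3* mutant libraries, ordered by the control level, with bars for the mean and whiskers for the SD of 3 libraries. *Hes6* is highest and *Heyl* lowest in each genotype, at 25.7 and 0.589 CPM per kb in controls.

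Of 5 listed ligands that activate the receptors, 3 were called lower and 0 higher in *Fzd3* mutants, with a median log2 fold change of -0.42. Over all genes 14.8% were called lower and 15% higher, a background for all list counts of this comparison below. *Dll1* and *Dll3*, Delta ligands of progenitors and newborn neurons, changed by -0.54 (limma, adjusted P = 0.000467) and -0.58 (limma, adjusted P = 0.00871). *Jag1*, a Jagged ligand, was at 17.2, 18.7 and 20.2 CPM in controls, 14.5, 13.6 and 13.2 CPM in *Fzd3* mutants and 14.4, 12.9 and 13.8 CPM in *Celsr3* mutants. Both mutants lay below the shared controls without overlap. The log2 fold change of *Jag1* was -0.42 in *Fzd3* mutants (limma, adjusted P = 0.00281) and -0.43 in *Celsr3* mutants, where it missed the threshold (95% interval -0.61 to -0.26; limma, adjusted P = 0.0613). *Jag2*, the other Jagged ligand, averaged 32.9 CPM in controls and 40.1 CPM in *Fzd3* mutants, a log2 fold change of 0.29 that missed the threshold (limma, adjusted P = 0.0515, with a range of 0.00278 to 0.182 over the alternatives, the lowest without control library 3, which was its highest control). It also passed without *Fzd3* mutant library 3 (adjusted P = 0.0372) and with 3 of the other alternatives. The count of ligands called higher was 2 without *Fzd3* mutant library 3.

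Among 4 listed genes of 8 chosen from the remaining receptor and Hes/Hey families, *Bhlhe40*, a repressor related to the Hes proteins, rose from 7.52 to 11 CPM, with a log2 fold change of 0.52 (limma, adjusted P = 0.00128), and 3 were not called. The count was 2 without control library 2 or 3 or *Celsr3* mutant library 2 or 4, and the median log2 fold change was 0.46. *Hes2*, *Hes3*, *Hes7* and *Helt* were not analysed here. *Notch4*, the receptor of endothelial cells, averaged 4.81 CPM in controls and 6.59 CPM in *Fzd3* mutants and did not pass (limma, adjusted P = 0.0515); it was named after its value was seen. Of 10 markers of endothelial cells, 4 were called higher in *Fzd3* mutants, 0 lower and 6 not called, beside 15% of all genes called higher. Their sums were 209, 207 and 184 CPM in *Fzd3* mutants, 141, 140 and 148 CPM in controls and 147, 132 and 186 CPM in *Celsr3* mutants. *Kdr* was the most abundant, 0 were at 0, and the count was 5 or 6 without control library 3, *Celsr3* mutant library 1 or *Celsr3* mutant library 4. The part of endothelial cells in the value of *Notch4* was not tested.

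Of 16 listed co-activators and co-repressors of RBPJ (of 18 chosen), 5 were called lower and 0 higher in *Fzd3* mutants. Over all genes 14.8% were called lower and 15% higher. The median log2 fold change of the list was -0.14. Among those called, changes were -0.30 for *Hdac1* (limma, adjusted P = 0.0025), -0.21 for *Maml1* (limma, adjusted P = 0.0187) and -0.19 for *Ctbp1* (limma, adjusted P = 0.00358). *Hdac1* encodes a histone deacetylase, *Maml1* a Mastermind co-activator and *Ctbp1* a co-repressor. *Maml1* missed the threshold without control library 1 (adjusted P = 0.0643), control library 2 (0.0599) or *Fzd3* mutant library 2 (0.075), and the count of lower genes was 3 without each of these and 6 without control library 3 or *Fzd3* mutant library 3. *Hdac2*, the most abundant of the list, averaged 523 CPM in controls and 496 CPM in *Fzd3* mutants. Among 5 listed Groucho genes, from 7 symbols chosen, 1 was called lower, beside 14.8% of all genes. Products of Groucho genes are co-repressors of Hes proteins. The gene called was *Tle1*, with a log2 fold change of -0.20 (limma, adjusted P = 0.0208). *Tle1* missed the threshold without control library 2 (adjusted P = 0.0779), control library 3 (0.0599), *Fzd3* mutant library 1 (0.0578) or *Fzd3* mutant library 2 (0.0614), which left 0 called. *Aes*, the most abundant Groucho gene, averaged 213 CPM in controls and 220 CPM in *Fzd3* mutants.

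Of 25 listed genes of receptor processing and trafficking (of 26 chosen), 4 were called lower and 4 higher in *Fzd3* mutants, beside 14.8% lower and 15% higher of all genes, with a median log2 fold change of -0.01. *Lfng* and *Mfng*, Fringe enzymes that add sugars to Notch receptors, changed by -0.65 (limma, adjusted P = 0.0016) and -0.58 (limma, adjusted P = 0.000559). *Dtx4*, a Deltex ubiquitin ligase, averaged 42.3 CPM in controls, 116 CPM in *Fzd3* mutants and 49.1 CPM in *Celsr3* mutants. Its log2 fold change in *Fzd3* mutants was 1.45 (limma, adjusted P = 1.93e-06). *Mib2*, a ubiquitin ligase for Notch ligands, rose by 0.32 (limma, adjusted P = 0.00183). *Adam10*, the protease that sheds bound receptors and the most abundant gene of the list, averaged 163 CPM in controls and 164 CPM in *Fzd3* mutants. The counts are not firm and ranged over the alternatives from 2 to 6 lower, with 6 at a minimum mean of 5 CPM, and from 2 to 5 higher. Among libraries left out, 2 were lower without control library 2 or *Fzd3* mutant library 1, and 2 were higher without library 1 or library 2 of any genotype.

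Proneural genes, which Hes proteins repress, were lower rather than higher in *Fzd3* mutants: 3 of 4 listed genes (of 6 chosen) fell and 0 rose. *Neurog2*, the most abundant, averaged 81.6 ± 6.24 CPM in controls, 44.7 ± 4.51 CPM in *Fzd3* mutants and 85.5 ± 9 CPM in *Celsr3* mutants (SD, n = 3). Its log2 fold change in *Fzd3* mutants was -0.86 (limma, adjusted P = 8.46e-05), beside -1.49 for *Neurog1* (limma, adjusted P = 0.00126) and -0.75 for *Neurod4* (limma, adjusted P = 0.00278). The list's median was -0.81. Of 6 other listed genes known to respond to Notch (of 7 chosen), 4 fell and 1 rose, with a median of -0.46. The count of lower genes was 3 without control library 1 or 2 or *Fzd3* mutant library 1 or 2. *Nfia*, a gliogenic factor, was at 248, 295 and 200 CPM in controls, 164, 169 and 191 CPM in *Fzd3* mutants and 212, 244 and 232 CPM in *Celsr3* mutants, a log2 fold change of -0.49 in *Fzd3* mutants (limma, adjusted P = 0.00886). The cyclin gene *Ccnd1* changed by -0.87 (limma, adjusted P = 0.00032) and the glial factor *Sox9* by -0.47 (limma, adjusted P = 0.0105). *Myc*, a growth regulator, went the other way at 1.15 (limma, adjusted P = 7.4e-05). *Nfib* had the highest CPM of the list, with 1229 CPM in controls and 893 CPM in *Fzd3* mutants.

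Many markers of the progenitors that carry Notch receptors were lower in *Fzd3* mutants, as were most members. Of 9 listed radial glia markers (of 10 chosen), 6 were called lower in *Fzd3* mutants, 0 higher and 3 not called, with a median log2 fold change of -0.47. Their sums were 1438, 1495 and 1451 CPM in controls, 1101, 1165 and 1054 CPM in *Fzd3* mutants and 1304, 1342 and 1426 CPM in *Celsr3* mutants. The *Fzd3* mutant mean was thus 75.7% of the control mean, next to 74% for the sum of the 10 members. In *Celsr3* mutants 0 of these markers were called, and all 9 log2 fold changes were negative, with a median of -0.13. Of the 10 members 3 were negative there, with a median of 0.05. The most abundant marker was *Vim* in controls (483 CPM, and 313 CPM in *Fzd3* mutants) and *Fabp7* in *Fzd3* mutants (412 CPM, and 463 CPM in controls), and 0 markers were at 0. *Fabp7* and *Sox9* also stand in the list of Notch-responsive genes.

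Cycling cells had the lowest share among the lists: 10 of 10 markers fell, with a median log2 fold change of -0.75. Their sums were 1015, 1084 and 921 CPM in controls, 566, 604 and 660 CPM in *Fzd3* mutants and 899, 976 and 1046 CPM in *Celsr3* mutants, which put *Fzd3* mutants at 60.6% of control. *Top2a* was the most abundant of them, and 0 were at 0. All 6 markers of intermediate progenitors fell as well (median -0.71), from sums of 336, 357 and 293 CPM in controls to 194, 212 and 243 CPM in *Fzd3* mutants, with 329, 375 and 377 CPM in *Celsr3* mutants. *Eomes* was the most abundant, 0 were at 0, and *Neurog1* and *Neurod4* are shared with the proneural list. The part of fewer progenitors in the lower levels of the members was not tested.

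**Figure D5:**
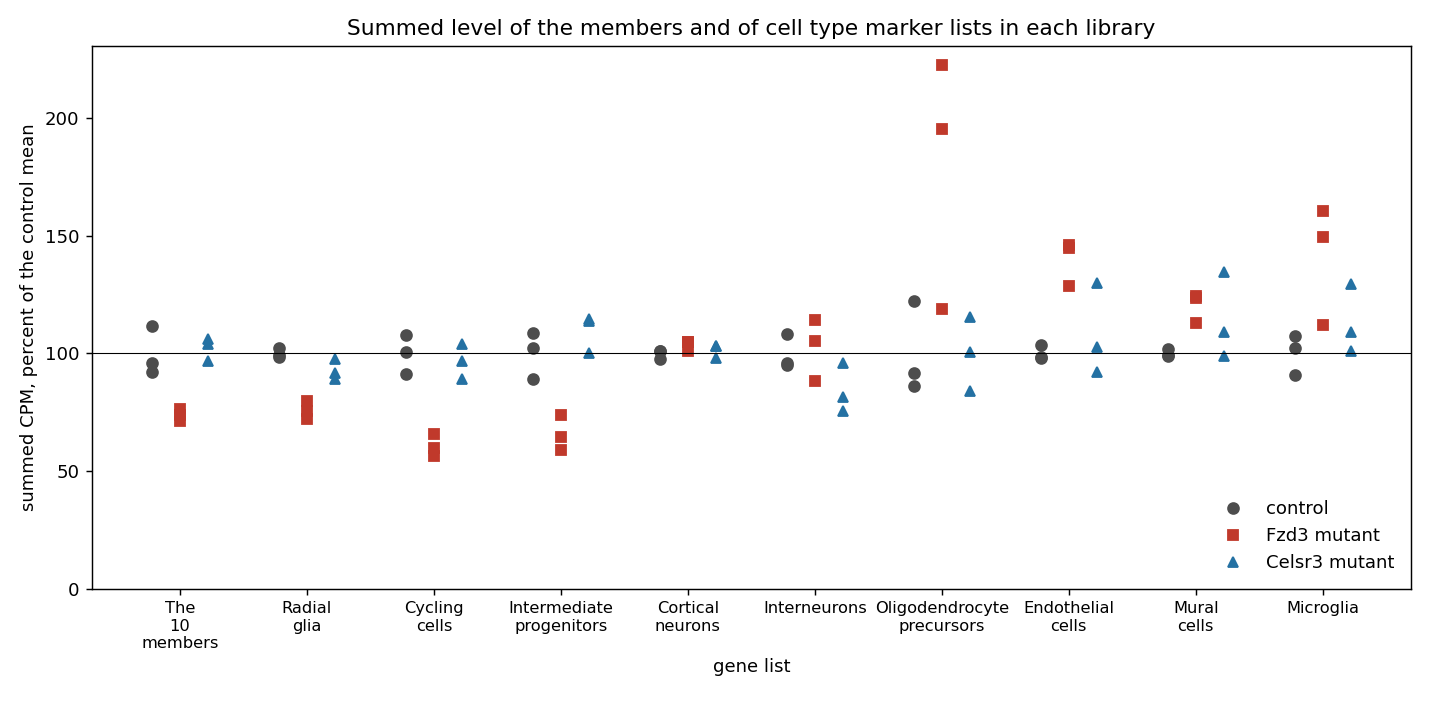
Summed CPM of the 10 members and of 9 marker lists in each library, as percent of the control mean of the same list (vertical axis, from 0). In *Fzd3* mutants the mean is 74% for the members, 75.7% for radial glia, 60.6% for cycling cells and 65.7% for intermediate progenitors, and 104% for cortical neurons.

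Markers of neurons were less shifted. Of 9 listed markers of cortical neurons (of 10 chosen), 4 were called lower and 2 higher in *Fzd3* mutants, with a median log2 fold change of 0.02. These counts fell to 3 or 1 with several single libraries left out. Their sums were 6745, 6755 and 6523 CPM in controls, 6988, 6751 and 7004 CPM in *Fzd3* mutants and 6882, 6878 and 6553 CPM in *Celsr3* mutants, with *Dcx* as the most abundant gene. Of 8 interneuron markers 0 were called by limma in *Fzd3* mutants, and sums were 239, 237 and 270 CPM in controls, 284, 262 and 220 CPM in *Fzd3* mutants and 239, 203 and 188 CPM in *Celsr3* mutants, with *Dlx1* as the most abundant. Without *Fzd3* mutant library 3 the count was 1 higher.

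For markers of glial and blood-borne cells, the counts stand beside 15% of all genes called higher and 14.8% called lower in *Fzd3* mutants. Of 5 markers of oligodendrocyte precursors, 3 were called higher in *Fzd3* mutants, with sums of 71.2, 62.6 and 38 CPM against 29.4, 27.6 and 39.1 CPM in controls and 36.9, 26.9 and 32.2 CPM in *Celsr3* mutants. *Fzd3* mutant library 3 lay inside the control range of this list, whose most abundant gene was *Pdgfra*. The count was 1 without control library 1 or 2 or *Fzd3* mutant library 1 or 2. Of 8 microglial markers, 3 were called higher, with sums of 65, 60.6 and 45.4 CPM in *Fzd3* mutants, 36.8, 43.5 and 41.4 CPM in controls and 40.9, 44.2 and 52.4 CPM in *Celsr3* mutants. *Csf1r* was their most abundant gene, and the count ranged from 1 without *Fzd3* mutant library 1 to 5 without library 3. Of 6 listed erythroid genes (of 7 chosen), 1 was called lower (0 without control library 1 or 2 or any of the *Fzd3* mutant libraries), and sums ranged from 1569 CPM in *Fzd3* mutant library 3 to 2536 CPM in *Celsr3* mutant library 4, with *Hba-a1* as the most abundant. Of the 4 meningeal genes 0 were called in *Fzd3* mutants by limma, with sums of 16.3, 16.9 and 11.7 CPM. *Col1a1* was the most abundant there, at 7.14 CPM, and without *Celsr3* mutant library 4 the count was 2 higher. In no list was a listed gene at 0 in all libraries. The 6 chosen markers of choroid plexus were not analysed here. In *Celsr3* mutants limma called 0 genes of any of these lists, and so did limma with voom weights. Median log2 fold changes there were -0.13 for radial glia, -0.06 for cycling cells, 0.09 for intermediate progenitors and -0.23 for interneurons, beside -0.002 for all genes.

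For *Notch1*, *Hes1* and *Hes5*, the genes of most similar profile were found by Pearson correlation over the 9 libraries, among 11584 other genes that averaged 5 CPM or more. The libraries differ by genotype, so r describes the profile and carries no test. Closest to *Notch1* were *Gm18025* (r = 0.992), annotated as a processed pseudogene, *Celsr1* (r = 0.991), a cadherin of planar cell polarity, and *Igf2bp1* (r = 0.987), an RNA-binding protein. Reads of a pseudogene may be shared with its parent gene, so its level is uncertain. Closest to *Hes1* were *Fgfr3* (r = 0.975), a growth factor receptor, *Nrarp* (r = 0.971) and *Raver1* (r = 0.97), a splicing regulator. Closest to *Hes5* were *Gm7866* (r = 0.985), a symbol absent from the annotation used here, *Dpf3* (r = 0.984), a chromatin protein, and *Limd1* (r = 0.98), a LIM domain protein.

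Within the set, *Notch1* was most similar to *Notch2* (r = 0.98, place 14 of 11584) and least to *Hes6* (r = 0.696, place 2628). Its r was 0.93 with *Rbpj*, 0.919 with *Nrarp*, 0.89 with *Hes1*, 0.888 with *Hey1* and 0.859 with *Hes5*. *Hes5* was close to *Hey1* (r = 0.965, place 20). *Heyl*, with a mean under 5 CPM, was not compared. Of the 10 members, 5 (*Notch1*, *Notch3*, *Rbpj*, *Hes5* and *Nrarp*) have a gene annotated on the other strand within their bounds, and without strand in the counting, reads of both cannot be told apart.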

How the data were processed

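Cortical RNA of 9 libraries, 3 per genotype, was measured at E16.5. The authors deposited CPM values, 1 column per library, for 14670 genes, and a company made and sequenced the libraries. The submitters' processing notes name FastQC, TopHat, TopHat2, Bowtie, Cufflinks 2.1.1 and edgeR 2.12 and the builds GRCm38 and GRCh37, without role or order. Annotation, counting and use of strand are not given in the sources used here, so genes that share sequence, or overlap on opposite strands, are uncertain. The lowest mean was 0.54 CPM, and genes below it are not analysed here. Columns left unused numbered 0.

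Genotypes were taken from the sample labels. The package limma 3.58.1 under R 4.3.3 gave all differences (a linear model for all 9 libraries, moderated with a trend) on log2(CPM + 0.5), which understates changes of low genes, with Benjamini-Hochberg adjustment over 14670 genes and a threshold of 0.05. The minimum mean of 0.5 CPM removed 0 genes. Exact permutation tests, two-sided, and tables used scipy 1.17.1, pandas 2.3.3 and numpy 2.4.6 under Python 3.11.15, and figures used matplotlib 3.10.9. In each library 100% of values were whole multiples of 1 step (tolerance 0.1), taken as 1 read for the depth and the voom alternative, but too few low values were listed to establish this. Positions and exon lengths (union of all exons) came from GENCODE M21 on GRCm38, and promoters from RefSeq on GRCm38.p6. No pair of libraries of a genotype repeated the same reads: the median chi-square over its expected value was 4.65 to 9.45.

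Members and lists were chosen with earlier results of these data known. The genes named were all members, *Celsr3*, *Fzd3*, *Jag1* and *Nfia*, up to 4 of the called genes with large changes in *Fzd3* mutants and the most abundant gene of each pathway list, the most abundant gene of each cell type list (also within a genotype where it differs), and the 3 genes most similar to *Notch1*, *Hes1* and *Hes5*. *Notch4* was added after its value was seen. Alternatives covered the pseudocount, the filter, the scaling, the libraries fitted, a replicate block, the trend, each library left out and the length used, and voom weights were added after the data were seen.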

Additional observations from a re-analysis of the deposited data

Results flagged for a closer look

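The response of 9 members differed between the mutants by a test of the difference itself, the direct comparison of *Fzd3* with *Celsr3* mutants in limma over all genes. Lower in *Fzd3* mutants were the receptors *Notch1* (log2 difference -0.62, adjusted P = 0.00204), *Notch2* (-0.41, adjusted P = 0.0108) and *Notch3* (-0.39, adjusted P = 0.0428). *Rbpj* differed by -0.42 (adjusted P = 0.000573). Among the effectors *Hey1* differed by -0.77 (adjusted P = 0.000266), *Hes5* by -0.60 (adjusted P = 0.00406), *Hes1* by -0.51 (adjusted P = 0.0208), *Nrarp* by -0.47 (adjusted P = 0.00416) and *Hes6* by -0.29 (adjusted P = 0.0061). Over all genes, 29.6% passed in this comparison and 14.3% were lower, so such differences were common. Not all were firm: 7 members passed without *Celsr3* mutant library 4, with 3143 of 14670 genes, and 5 with a block for replicate number, with 2101 genes. Under the block *Notch2* (adjusted P = 0.0736), *Notch3* (0.261), *Hes1* (0.109) and *Hes6* (0.0654) did not pass. No groups were tested for single libraries far from the rest, since each held 3.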

How the results depend on the processing

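Over 19 alternatives (18 for *Heyl*, which a minimum of 5 CPM removed), *Notch1*, *Notch2*, *Rbpj*, *Hes5*, *Hey1* and *Nrarp* stayed past the threshold in *Fzd3* mutants against controls, with a highest adjusted P of 0.015, 0.0339, 0.00697, 0.0118, 0.00197 and 0.0277. *Hes1* passed in 17 and *Notch3* in 2. With a library left out, 6 to 8 members passed in *Fzd3* mutants, 0 in *Celsr3* mutants and 7 to 9 in the direct comparison. Voom weights on reads recovered from the CPM values, added after the data were seen, gave 7, 0 and 9 members and 4207, 47 and 4359 genes. Tests for counts with edgeR or DESeq2 were planned and not run, since the deposited values are CPM and too few low values were listed to accept the recovered reads as counts, a doubt that holds for voom too.

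Correlations of deviations gave no clear sign that replicate numbers pair the libraries. Between same-numbered libraries they were -0.0696, -0.154 and -0.199 for controls with *Fzd3* mutants, 0.0728 and -0.0132 for controls with *Celsr3* mutants and 0.192 and -0.0799 for the mutants. Between libraries of different number and genotype they ran from -0.163 to 0.188. Whether same-numbered libraries shared a litter or batch was not tested. A replicate block gave 3629 genes in *Fzd3* mutants, 29 rather than 45 in *Celsr3* mutants and 2101 rather than 4346 in the direct comparison, with 5 rather than 9 members there (*Notch2* adjusted P = 0.0736, *Notch3* 0.261, *Hes1* 0.109, *Hes6* 0.0654). *Celsr3* in its own mutants had an adjusted P of 0.0699 under the block. Under the block log2 fold changes in *Celsr3* mutants reached -0.240 for *Hes1* and -0.219 for *Hes5*, neither called, and turned to -0.0538 for *Notch3*, -0.0457 for *Hey1*, -0.107 for *Heyl* and -0.0750 for *Nrarp*.

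With single libraries left out, changes of some members in *Celsr3* mutants, none of them called, crossed 0, with ranges of log2 fold change of -0.0342 to 0.193 for *Notch1*, -0.117 to 0.0929 for *Notch2*, -0.0655 to 0.18 for *Notch3*, -0.171 to 0.083 for *Hes1*, -0.147 to 0.0038 for *Hes5*, -0.0979 to 0.314 for *Heyl* and -0.0214 to 0.129 for *Nrarp*.

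*Notch3* in the direct comparison passed in 12 of 19 alternatives (adjusted P = 0.0254 to 0.261), *Hes1* in 15 (0.012 to 0.109), and *Heyl* in 1 of 18, without *Celsr3* mutant library 2 (0.0225). Over the longest transcript, levels in controls moved to 10.8 CPM per kb for *Notch1*, 25.9 for *Rbpj*, 6.3 for *Hes1*, 29.5 for *Hes6* and 8.19 for *Hey1*. No effector difference from *Notch1* or *Notch2* moved by more than the spread between libraries. With 3 libraries per genotype an exact permutation test cannot go below 0.1, and the cause of the changes between alternatives was not tested.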
